A study of Mus musculus with 2 samples.

Results

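Inflammasomes are cytosolic protein platforms that activate inflammatory caspases, and 7 genes of this machinery are described here across the leukocytes of young mouse skin. The 7 genes, out of 32285 in the files, are the sensors Nlrp3, Nlrc4 and Aim2, the adaptor Pycard, the caspase genes Casp1 and Casp4, and the pore-forming effector Gsdmd. They were taken by gene symbol, and all 7 were found in both libraries. Skin of C57BL/6 wild-type mice was digested with collagenase at postnatal day 15, and live CD45+ cells, the leukocytes, were sorted for single-cell sequencing of 3′ RNA ends. The mice had received either anti-Gr-1, an antibody that binds surface antigens of neutrophils and monocytes and was used by the study to deplete monocytes, or a control antibody of the same isotype, on alternate days from day 4 to day 14. Each treatment is represented by 1 library, made from a pool of 4 to 7 mice. The treatment therefore cannot be told apart from the library, no test was made, and every interval given is a 95% exact interval that covers counting error only.

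NLRP3 responds to disturbances such as potassium efflux after its gene has been induced through NF-kB, NLRC4 responds to bacterial flagellin and secretion-system proteins that NAIP proteins bind, and AIM2 binds double-stranded DNA in the cytosol. PYCARD, also called ASC, links sensors to pro-caspase-1. Caspase-1 cleaves the precursors of interleukin-1 beta and interleukin-18 as well as gasdermin D, and the mouse Casp4 gene, often called caspase-11, encodes a caspase that binds cytosolic lipopolysaccharide and also cleaves gasdermin D. The released gasdermin D fragment forms pores through which these cytokines leave the cell. Macrophages, monocytes and neutrophils are the skin leukocytes in which the machinery is best known.

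The anti-Gr-1 library held 9110 barcodes and 85142470 unique molecular identifiers (UMIs, counts of distinct captured transcripts), and the isotype control library held 21311 barcodes and 125253392 UMIs. After filters and doublet removal 7529 anti-Gr-1 and 16487 isotype control cells were kept, with medians of 7867 and 5073 UMIs. Ptprc, the gene of CD45, was found in 94.81% and 90.94% of them. Marker genes scored in each cell placed 6010 anti-Gr-1 and 10907 isotype control cells in a class, named after the cell type whose markers it carried with the suffix "-like", or after its genes where no cell type name was given. The neutrophil-like class held 9 of 7529 anti-Gr-1 cells and 139 of 16487 isotype control cells, and the classical monocyte-like class held 16 and 210. Of anti-Gr-1 cells 20.18%, and of isotype control cells 33.84%, were set aside without a class. Among kept cells, 44 barcodes were shared between the libraries. Cells called female numbered 1433 and cells called male 4316 in the anti-Gr-1 library, against 5714 and 5373 in the isotype control library. A level is the sum of a gene's UMIs in a class relative to all UMIs of that class, on the usual CPM scale, and levels are compared within a gene only, since 3′ UMI counts are not set against each other between genes here.

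In the mm10 build, with GENCODE M21 annotation, Nlrp3 lies on the plus strand at chr11:59541568-59566956, and Nlrc4 on the minus strand at chr17:74425438-74459142. Aim2 lies on the plus strand at chr1:173350879-173466040, where it overlaps Cadm3 on the other strand without overlap of their exons. Pycard is on the minus strand at chr7:127989708-127993867 and Gsdmd on the plus strand at chr15:75862327-75867408. Casp1 (chr9:5298517-5307265) and Casp4 (chr9:5308828-5336783) are neighbours on the plus strand, with the start of Casp4 1563 bases past the end of Casp1. RefSeq windows upstream of the annotated starts (GRCm38.p6, the assembly of mm10) are shown for Nlrp3, Casp1 and Pycard, because the classes highest for Nlrp3, described next, ranked low for Casp1 and Pycard. Capitals mark the core AGGAAG of the myeloid and B cell factor PU.1, on either strand, or the C/EBP motif TTGCNNAA, also searched on both strands; the windows are chr11:59541319-59541567, chr11:59542436-59542685, chr9:5298267-5298516 (plus strand) and chr7:127993868-127994117 (minus strand), each read along its gene.
Nlrp3 first start: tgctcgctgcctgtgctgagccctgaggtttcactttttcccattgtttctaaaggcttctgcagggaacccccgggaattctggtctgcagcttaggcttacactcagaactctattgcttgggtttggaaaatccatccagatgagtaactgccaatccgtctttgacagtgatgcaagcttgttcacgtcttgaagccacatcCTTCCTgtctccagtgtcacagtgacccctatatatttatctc
Nlrp3 second start: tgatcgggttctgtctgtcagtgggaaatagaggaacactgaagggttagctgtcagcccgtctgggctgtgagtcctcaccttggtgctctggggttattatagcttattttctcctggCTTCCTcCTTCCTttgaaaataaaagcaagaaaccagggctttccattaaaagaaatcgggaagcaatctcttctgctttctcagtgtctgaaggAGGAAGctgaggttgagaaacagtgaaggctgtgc
Casp1: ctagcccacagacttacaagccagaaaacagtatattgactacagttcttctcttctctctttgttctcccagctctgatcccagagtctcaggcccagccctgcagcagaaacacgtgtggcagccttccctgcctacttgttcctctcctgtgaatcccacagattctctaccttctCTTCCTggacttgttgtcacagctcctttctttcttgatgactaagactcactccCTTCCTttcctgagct
Pycard: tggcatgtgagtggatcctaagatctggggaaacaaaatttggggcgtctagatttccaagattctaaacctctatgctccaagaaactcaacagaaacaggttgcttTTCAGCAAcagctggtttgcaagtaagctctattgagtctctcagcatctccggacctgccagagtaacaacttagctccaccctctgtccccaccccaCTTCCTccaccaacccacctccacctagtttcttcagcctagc

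The second Nlrp3 window held 3 PU.1 cores, the Casp1 window 2, and the first Nlrp3 window and the Pycard window 1 each. Of 32851 windows of 250 bases before RefSeq starts, 29.5% held at least 1 PU.1 core and 9.56% a C/EBP motif, and the C/EBP motif was found in the Pycard window alone among those of the 6 members that had one. Gsdmd was not searched. The windows of Nlrc4 and Aim2, shortened to 216 and 217 bases to keep out exons, held 2 and 1 PU.1 cores. The Casp4 windows, likewise shortened to 229 and 218 bases with the second inside the first, held none. Neither the interferon-stimulated response element (2.98% of windows) nor the AP-1 motif TGANTCA (6.75% of windows) was found in any of these members' windows. These matches describe letters in the windows and do not show binding.

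Nlrp3 was highest in basophil-like cells of both libraries and in neutrophil-like cells of the isotype control library. Basophil-like cells held 1441 CPM in the anti-Gr-1 library (interval 1283 to 1613, 302 UMIs in 33 cells) and 1521 CPM in the isotype control library (interval 1351 to 1707, 289 UMIs in 41 cells). Neutrophil-like cells held 286 CPM in the anti-Gr-1 library, from 19 UMIs in 9 cells, and 1523 CPM in the isotype control library (interval 1395 to 1660, 519 UMIs in 139 cells). The intervals of the basophil-like and isotype control neutrophil-like levels overlapped, and those of all lower classes of at least 20 cells lay apart from them. Classical monocyte-like cells followed at 242 CPM in the anti-Gr-1 library (16 cells) and 187 CPM in the isotype control library, and non-classical monocyte-like cells held 91.1 and 99.8 CPM. Eosinophil-like cells, with medians of 1025 and 1021 UMIs, stood at 126 CPM from 7 UMIs in 48 anti-Gr-1 cells and at 86.1 CPM from 2 UMIs in 23 isotype control cells. Tissue phagocytes and dendritic cells formed a middle tier that included cells expressing Retnla, Lpl and Fn1 (53.6 and 40.9 CPM), type 2 dendritic cell-like cells (40.1 and 33.5 CPM), Langerhans cell-like cells (33.7 and 41.7 CPM) and macrophage-like cells (30.3 and 60.7 CPM). Within that tier the intervals of neighbouring classes mostly overlapped, and the order differed between libraries. Type 1 dendritic cell-like cells held 7.73 and 8.05 CPM, and no T cell or innate lymphoid class exceeded 6.46 CPM in either library. In dendritic epidermal T cell-like cells, a class of skin T cells with an invariant gamma-delta receptor, Nlrp3 was found in 7 of 1488 anti-Gr-1 cells (0.470%, median 6270 UMIs) and 24 of 2739 isotype control cells (0.876%, median 4518 UMIs).

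Nlrp3 was found in 33 of 33 anti-Gr-1 and 30 of 41 isotype control basophil-like cells, at medians of 6095 and 4682 UMIs. With every cell thinned to 1000 UMIs the shares were 57.6% and 63.4%, and the isotype control neutrophil-like share was 60.0%. In classical monocyte-like cells of the isotype control library the thinned share was 15.4%, and in macrophage-like cells 4.31% and 5.56%. The basophil-like class is small, and its 10 leading genes included Ccl3, Ccl4, Csf1 and Il6. They held 2 basophil markers (Mcpt8 and Gata2) and 2 mast cell markers (Hdc and Gata2), with Gata2 on both lists. Mast cell-like cells themselves held 0 Nlrp3 UMIs in 364 anti-Gr-1 cells, which allows a level of up to 1.31 CPM (3 counts), and 27 UMIs in 706 isotype control cells (11.4 CPM). Of 10 neutrophil markers, 4 in the anti-Gr-1 library and 3 in the isotype control library were found in basophil-like cells, summing to 286 and 205 CPM, of which Cxcr2 made 262 and 195 CPM. S100a8, Csf3r, Lcn2, Ly6g, Trem1 and Mmp8 were at 0 in both. The 8 mast cell markers that are not basophil markers summed to 6735 and 7538 CPM in basophil-like cells. Hdc made 6263 and 4232 CPM of this, and without it the sums were 472 and 3306 CPM. Whether the class holds the same kind of cells in both libraries was not tested. Across alternative filters, gates, weights and corrections the basophil-like level ranged from 808 to 1689 CPM in the anti-Gr-1 library and from 893 to 2001 CPM in the isotype control library.

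**Figure D1:**
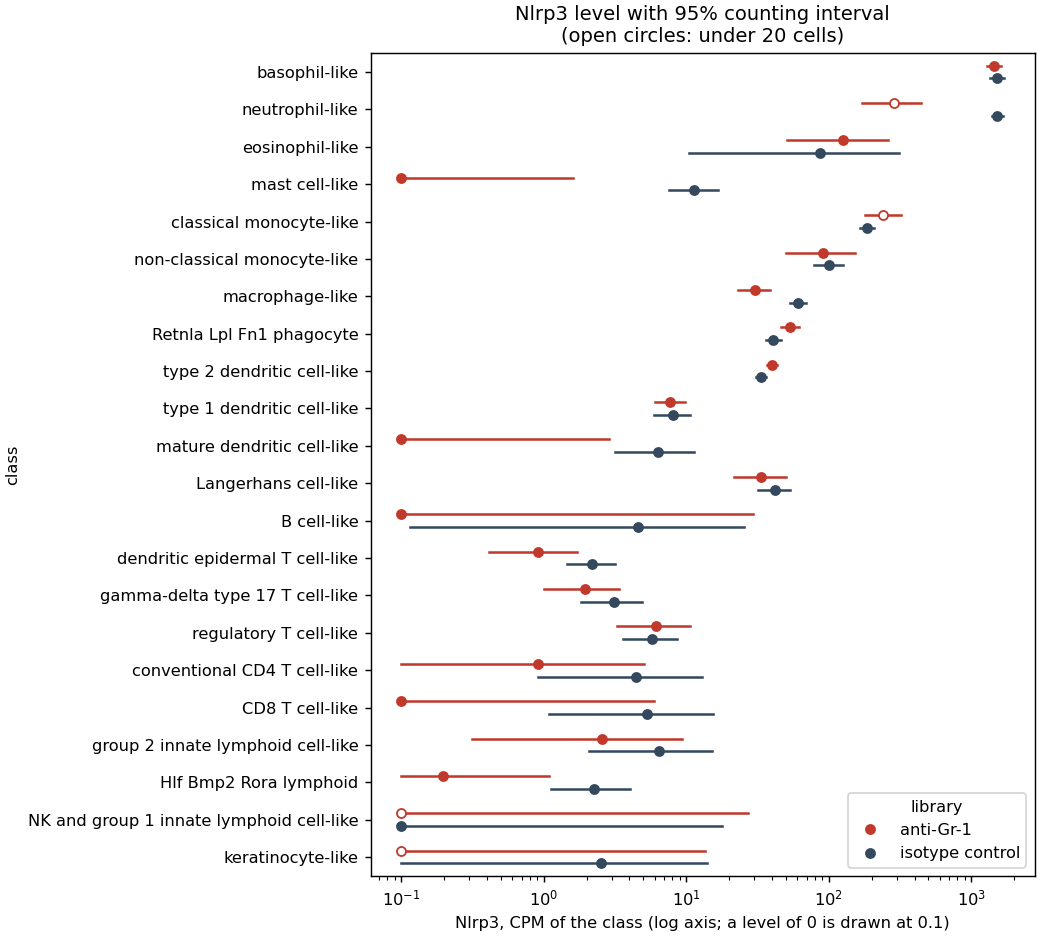
Nlrp3 level in CPM of each class (log axis, a level of 0 drawn at 0.1), with anti-Gr-1 and isotype control libraries as separate points and bars for 95% counting intervals; open circles are classes under 20 cells. Basophil-like cells of both libraries and isotype control neutrophil-like cells sit between 1441 and 1523 CPM, and the T cell and innate lymphoid classes at or under 6.46 CPM.

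In basophil-like cells of both libraries and isotype control neutrophil-like cells, high Nlrp3 stood beside low levels of Casp1 and Pycard. Casp1 was represented by 1 UMI in each library among basophil-like cells (4.77 and 5.26 CPM), and neutrophil-like cells held 2 UMIs (30.1 CPM) in the anti-Gr-1 library and 3 UMIs (8.80 CPM) in the isotype control library. A Casp1 UMI was found in 1 of 33 anti-Gr-1 and 1 of 30 isotype control basophil-like cells that held an Nlrp3 UMI. In type 2 dendritic cell-like cells, whose Nlrp3 level was far lower, 96 of 189 anti-Gr-1 and 118 of 267 isotype control Nlrp3-positive cells also held Casp1. Of the other cells of this class, 44.7% and 31.7% held Casp1. The class was deeper than basophil-like cells, with medians of 15284 and 10675 against 6095 and 4682 UMIs, so the shares are not directly comparable. Classical monocyte-like cells of the isotype control library carried both, with Casp1 in 58 of 118 Nlrp3-positive cells and in 44.6% of the others. Pycard in basophil-like cells stood at 38.2 CPM (8 UMIs) in the anti-Gr-1 library and 26.3 CPM (5 UMIs) in the isotype control library, which put them among the lowest classes for the adaptor. With so few UMIs, their intervals overlapped those of the neighbouring classes in both libraries. Neutrophil-like cells held Pycard at 60.2 CPM (4 UMIs, interval 16.4 to 154) and 38.1 CPM (13 UMIs, interval 20.3 to 65.2), so the 9 anti-Gr-1 cells do not place that class. Gsdmd in basophil-like cells was nearer to other myeloid classes, at 52.5 and 63.2 CPM. The substrate Il1b, the interleukin-1 beta gene, was abundant in the basophil-like class as a whole at 2852 and 1174 CPM, while Il18 had no UMI in this class in either library. An Il1b UMI was found in 18 of 33 anti-Gr-1 and 16 of 30 isotype control basophil-like cells that held an Nlrp3 UMI.

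**Figure D2:**
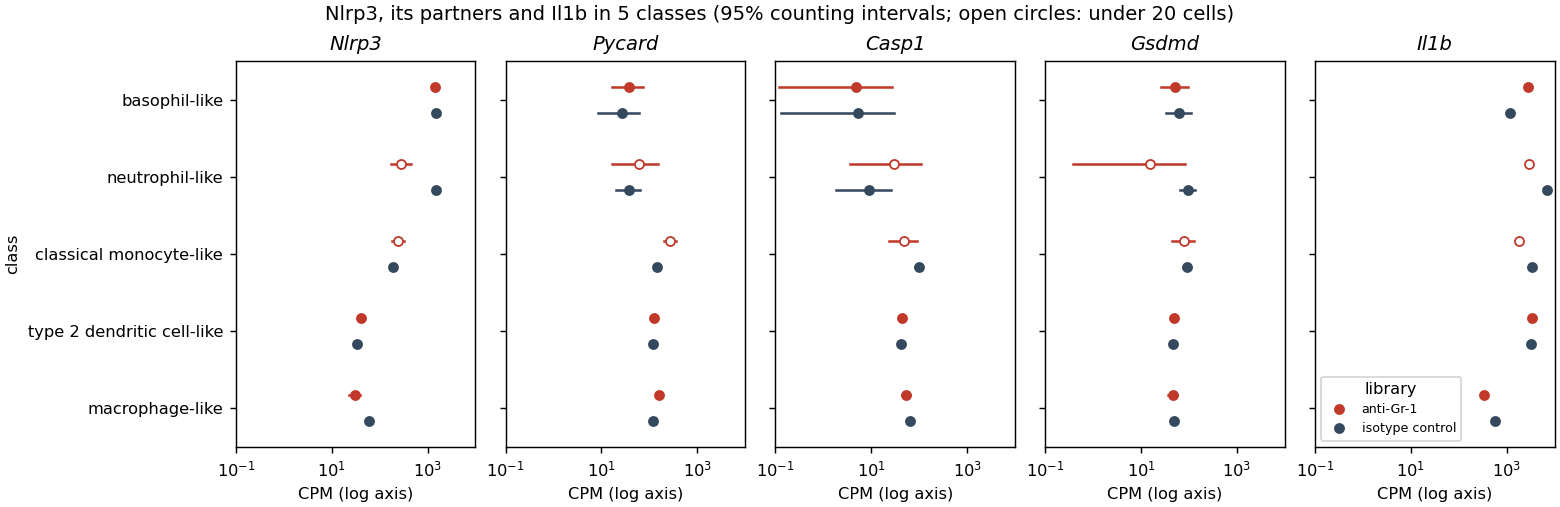
Levels of Nlrp3, Pycard, Casp1, Gsdmd and Il1b in CPM (log axis) in 5 classes, by library, with 95% counting intervals; open circles are classes under 20 cells. Basophil-like cells combine Nlrp3 at 1441 and 1521 CPM with Casp1 at 4.77 and 5.26 CPM.

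Nlrc4 had the fewest UMIs of the 7 genes, 125 among anti-Gr-1 cells and 346 among those of the isotype control, and macrophage-like cells were its main source. These held 20.2 CPM in the anti-Gr-1 library (40 UMIs) and 25.1 CPM in the isotype control library (94 UMIs), and although they made up 2.78% and 3.80% of kept cells they gave 32.0% and 27.2% of all Nlrc4 UMIs. Non-classical monocyte-like cells stood at 19.5 and 21.6 CPM, Langerhans cell-like cells at 10.8 and 15.1 CPM and B cell-like cells at 16.0 and 27.5 CPM, the last from 2 and 6 UMIs. The Retnla, Lpl and Fn1 phagocytes followed at 4.40 and 6.10 CPM, and their intervals did not overlap those of type 1 or type 2 dendritic cell-like cells. Type 2 dendritic cell-like cells, in the middle tier for Nlrp3, were low for Nlrc4 at 1.12 and 1.48 CPM. Naip2, a partner that recognises bacterial rod proteins, was highest in non-classical monocyte-like cells at 84.6 and 90.4 CPM and stood at 27.8 and 26.5 CPM in macrophage-like cells. Naip5 and Naip6 are near-identical copies, so their counts are uncertain.

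Aim2 was the most evenly spread of the sensors among myeloid and lymphoid classes. Non-classical monocyte-like cells were highest, at 111 CPM in the anti-Gr-1 library (17 UMIs) and 86.3 CPM in the isotype control library (64 UMIs). Langerhans cell-like cells held 45.8 and 30.2 CPM, type 1 dendritic cell-like cells 35.5 and 45.2 CPM, and the Retnla, Lpl and Fn1 phagocytes 32.7 and 42.0 CPM. Regulatory T cell-like cells, at 25.7 and 39.9 CPM, were level with macrophage-like cells at 25.3 and 36.9 CPM. Mast cell-like cells were the lowest of the larger classes at 5.67 and 6.35 CPM, with dendritic epidermal T cell-like cells (7.27 and 11.1 CPM) and gamma-delta type 17 T cell-like cells (17.0 and 10.5 CPM) also low. B cell-like cells held 16.0 CPM in the anti-Gr-1 library (2 UMIs) and 59.5 CPM in the isotype control library (13 UMIs). NK-like cells held 14.8 CPM (2 UMIs in 18 cells) and 72.1 CPM (15 UMIs in 35 cells), so both classes rest on few counts.

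Pycard was found in all 10 classes that held at least 100 cells in each library and varied less between them than the other 6 genes, from 61.5 to 224 CPM in the anti-Gr-1 library and from 66.0 to 203 CPM in the isotype control library. The Retnla, Lpl and Fn1 phagocytes led the classes of at least 20 cells, with 224 CPM in the anti-Gr-1 library (interval 209 to 240) and 203 CPM in the isotype control library (interval 193 to 214). CD8 T cell-like cells held 194 and 160.3 CPM, regulatory T cell-like cells 185 and 127 CPM and conventional CD4 T cell-like cells 156 and 136 CPM, and macrophage-like cells were within that range in the anti-Gr-1 library and just under it in the isotype control library (157 and 119.8 CPM). Mature dendritic cell-like cells, the Ccr7-expressing migratory state, held only 37.9 and 42.5 CPM, below type 1 (84.0 and 83.4 CPM) and type 2 dendritic cell-like cells (124 and 121 CPM) in both libraries and without overlap of intervals. Keratinocyte-like cells, which are not leukocytes and numbered 17 and 54, held 232 and 187 CPM. Because the lowest large class, mast cell-like cells at 61.5 and 66.0 CPM, is high for this gene, only 3 of 18 anti-Gr-1 and 1 of 18 isotype control classes stood at least 3 times above it.

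Casp1 and Casp4, although adjacent, did not have the same class order. In non-classical monocyte-like cells Casp1 stood at 111 CPM among anti-Gr-1 cells (17 UMIs), the highest class there, and at 52.6 CPM among isotype control cells, where classical monocyte-like cells led with 97.4 CPM. Macrophage-like cells (53.5 and 65.3 CPM), type 2 dendritic cell-like cells (44.6 and 42.5 CPM) and the Retnla, Lpl and Fn1 phagocytes (42.9 and 45.0 CPM) followed. For Casp4, macrophage-like cells led the classes of at least 20 cells, with 151 CPM in the anti-Gr-1 library (interval 134 to 169) and 173 CPM in the isotype control library (interval 160 to 187). The next class overlapped them in each library. It was non-classical monocyte-like cells at 137 CPM among anti-Gr-1 cells, and classical monocyte-like cells at 158 CPM among isotype control cells. Isotype control non-classical monocyte-like cells held 62.0 CPM. The 9 anti-Gr-1 neutrophil-like cells held 211 CPM from 14 UMIs (interval 115 to 354), against 67.5 CPM in isotype control neutrophil-like cells. Type 2 dendritic cell-like cells stood at 75.2 and 75.0 CPM. Macrophage-like cells were thus apart from every dendritic class for Casp4 in both libraries, and for Casp1 they were apart from type 2 dendritic cell-like cells in the isotype control library alone. Langerhans cell-like cells parted the pair most clearly. They held Casp1 at 33.7 and 28.8 CPM, whereas Casp4 had 0 UMIs in 65 anti-Gr-1 cells, which allows up to 4.04 CPM (3 counts), and 20 UMIs (14.4 CPM) in 182 isotype control cells. Type 1 dendritic cell-like cells were low for Casp4 (3.65 and 10.3 CPM) beside Casp1 at 16.0 and 15.9 CPM. Group 2 innate lymphoid cell-like cells ranked higher among the classes for Casp4 (29.7 and 67.2 CPM) than for Casp1 (15.5 and 14.2 CPM).

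Gsdmd was nearly level across the dendritic and phagocyte classes. In the anti-Gr-1 library the Retnla, Lpl and Fn1 phagocytes, mature, type 2 and type 1 dendritic cell-like cells and macrophage-like cells held 52.0, 48.0, 47.9, 47.0 and 45.5 CPM, and in the isotype control library 57.2, 47.7, 47.5, 47.6 and 50.01 CPM. Non-classical monocyte-like cells were higher, at 149.6 and 85.0 CPM. Mast cell-like cells, which were among the lowest classes for both caspase genes, held Gsdmd at 37.5 and 37.7 CPM. Langerhans cell-like cells stood below the other dendritic classes at 18.9 and 10.8 CPM, without overlap of intervals. Dendritic epidermal T cell-like cells were lowest, at 3.43 and 5.82 CPM. These T cells instead led all classes for Gsdme, a related pore-former cleaved by caspase-3, with 88.9 and 68.0 CPM, and Langerhans cell-like cells came next with 63.4 and 40.3 CPM.

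**Figure D3:**
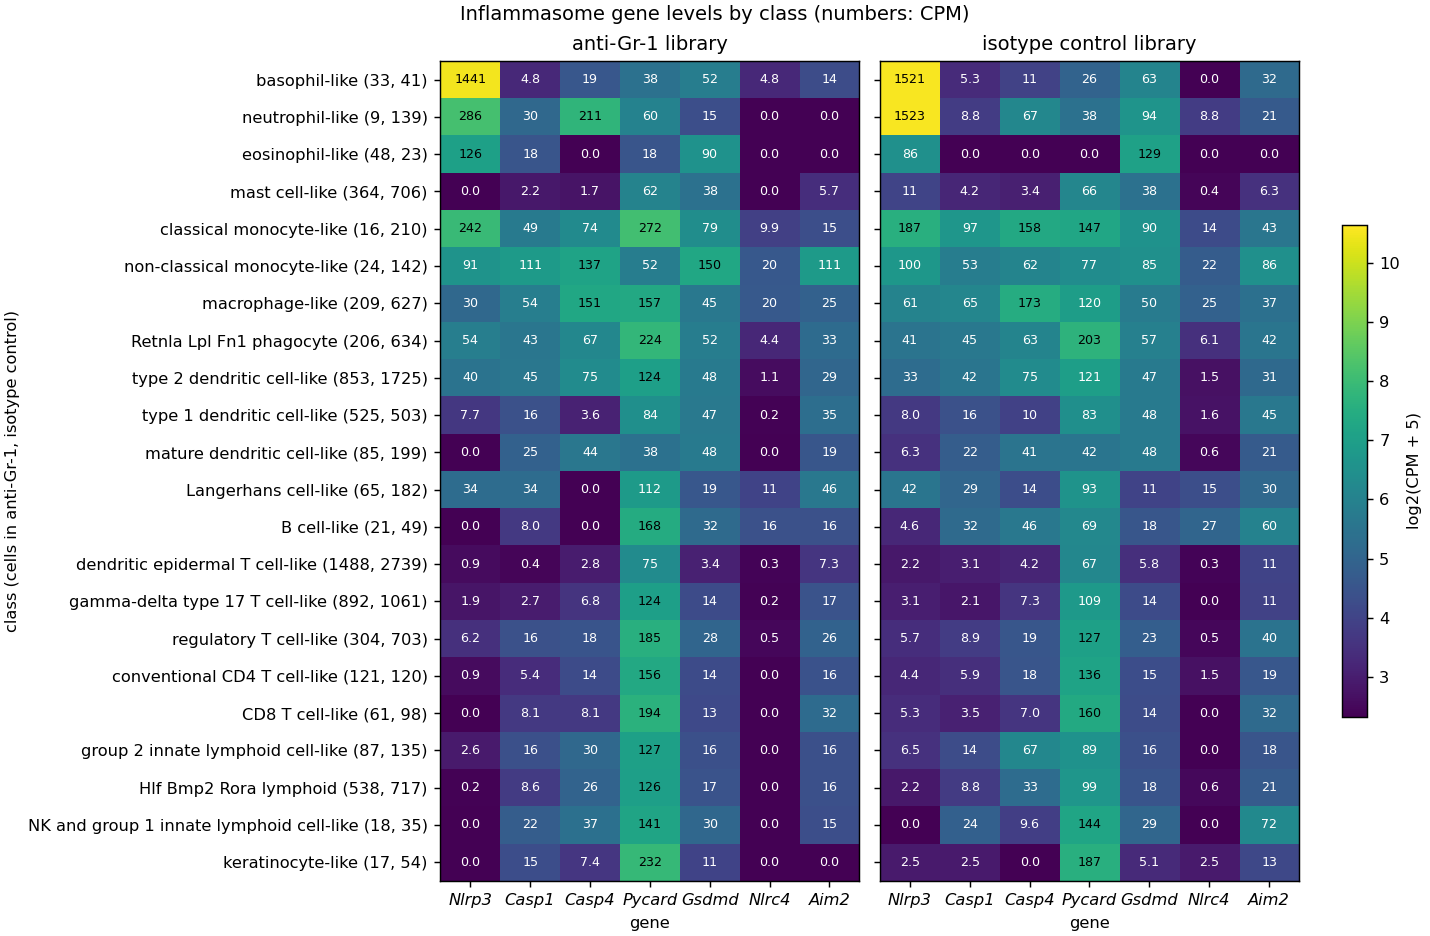
Levels of the 7 genes (columns) in each class (rows) of the anti-Gr-1 library and the isotype control library; colour is log2(CPM + 5), and the printed numbers are CPM. Nlrp3 is highest in basophil-like cells of both libraries (1441 and 1521 CPM) and in isotype control neutrophil-like cells, and Pycard is found in nearly all classes.

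Likeness of pattern was measured as the Pearson correlation of log2(CPM + 5) over 28 points, which are 14 classes in each of the 2 libraries, among 8626 genes. The points share libraries and depth, and the correlation is a description only. Nlrp3 was most like Tlr2, a receptor for bacterial lipoproteins (r = 0.96), Clec4a1 (0.95) and Adgre1 (0.94). Casp1 was most like Ctss, which encodes the lysosomal protease cathepsin S (0.92), and Nlrc4 was most like the antiviral gene Oas2 (0.96) and C1qa (0.94). Adgre1 and C1qa are among the markers that set the macrophage-like gate. Gsdmd was most like Prkcd (0.87), Casp4 like Bcl3 (0.85), Pycard like Acaa2 (0.88) and Aim2 like Wasf2 (0.85). The small basophil-like, neutrophil-like and monocyte-like classes were not among the 14, so these values do not cover the cells in which Nlrp3 was highest.

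Over all kept cells, Nlrp3 stood at 23.6 CPM in the anti-Gr-1 library and 40.2 CPM in the isotype control library, a ratio of 0.587 (interval 0.555 to 0.621). Nlrc4 stood at 1.69 and 3.36 CPM, a ratio of 0.504 (interval 0.407 to 0.620), and the other ratios were 0.744 for Casp4, 0.804 for Casp1, 0.840 for Aim2, 0.893 for Gsdmd and 1.06 for Pycard. The libraries differed in the classes that gave these Nlrp3 UMIs. Neutrophil-like cells gave 19 of 1745 anti-Gr-1 UMIs and 519 of 4147 isotype control UMIs, and cells set aside for carrying markers of 2 lineages gave 15.6% and 22.8%. Ratios within a class were therefore taken for the 10 classes that held at least 100 cells in each library. There, a gene was counted as past 1.5-fold if its ratio of CPM was beyond 1.5 in either direction with at least 20 UMIs over both libraries. The median over all genes was slightly under 0 on the log2 scale in every class, from -0.16 in regulatory T cell-like cells to -0.05 in mast cell-like cells.

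**Figure D4:**
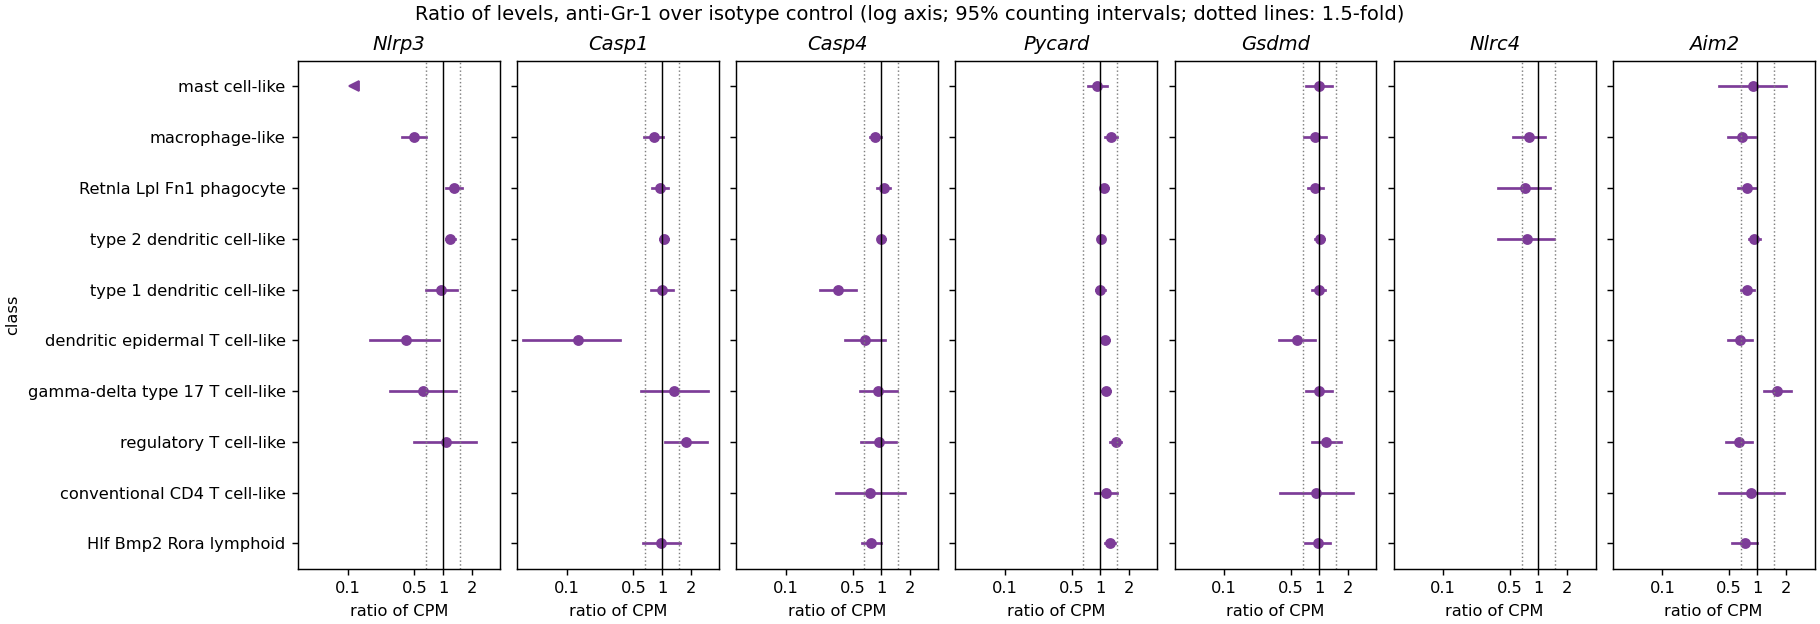
Ratio of CPM, anti-Gr-1 over isotype control, for each of the 7 genes in the 10 classes with at least 100 cells per library (log axis), with 95% counting intervals; dotted lines mark 1.5-fold, the triangle is an upper bound, and genes under 20 UMIs are left out. The Nlrp3 ratio is 0.50 in macrophage-like cells, and the points of type 2 dendritic cell-like cells lie between 0.76 and 1.20.

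Macrophage-like cells of anti-Gr-1 skin held less Nlrp3 and more Pycard than those of isotype control skin. Nlrp3 had 60 UMIs in 209 anti-Gr-1 cells and 227 UMIs in 627 isotype control cells (30.3 and 60.7 CPM), a ratio of 0.50 (interval 0.37 to 0.67). Pycard stood at 157 and 119.8 CPM, a ratio of 1.31 (interval 1.13 to 1.51), and Aim2 at 25.3 and 36.9 CPM, a ratio of 0.68 (interval 0.49 to 0.95). The intervals for Casp1 (0.82), Gsdmd (0.91) and Nlrc4 (0.80) included 1, and that for Casp4 (0.87) reached 0.998. Past 1.5-fold were 0 of 7 members higher and 1 lower, beside 4.13% and 11.5% of the 9979 genes measured in this class. The median log2 ratio was -0.26 over the 7 members and -0.07 over all genes. Split by sex, Nlrp3 had 6 UMIs in female anti-Gr-1 cells and 103 in female isotype control cells, a ratio of 0.18 (interval 0.066 to 0.41), but 35 and 54 UMIs in male cells, a ratio of 0.80 (interval 0.51 to 1.25). The Pycard ratio was 1.10 (interval 0.77 to 1.56) in female and 1.18 (interval 0.96 to 1.46) in male cells, so both intervals included 1. So did those of Aim2, with ratios of 0.92 (interval 0.47 to 1.69) in female and 0.66 (interval 0.39 to 1.08) in male cells. Markers of other cells were compared in the same cells. Of 9 classical monocyte markers 5 were found in the anti-Gr-1 library, with Ly6c2, Chil3 and Vcan among those at 0, and 8 in the isotype control library, with Chil3 at 0. They summed to 2517 and 2555 CPM, of which F13a1 made 2135 and 2014 CPM, and to 382 and 540.2 CPM without it. The 10 neutrophil markers summed to 38.4 and 60.7 CPM with 7 found in each library and Ly6g at 0 in both. Their part in the result was not tested.

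The macrophage-like cells were not uniform for Nlrp3. Cells in which both Lyve1 and Folr2, markers of resident perivascular macrophages, were found numbered 61 and 135, cells with 1 of them 74 and 210, and cells with neither 74 and 282. In the anti-Gr-1 library Nlrp3 stood at 4.46 CPM with both, 23.0 CPM with 1 and 67.2 CPM with neither marker. The isotype control library had the same order at higher levels, 10.1, 51.3 and 103 CPM. Cells with both markers thus held 0.066 of the Nlrp3 level of cells with neither in the anti-Gr-1 library (interval 0.013 to 0.21, 3 and 41 UMIs) and 0.098 in the isotype control library (interval 0.046 to 0.19, 10 and 151 UMIs). Il1b followed the same order, at 16.4, 396 and 634 CPM in the anti-Gr-1 library and 99.4, 399 and 1052 CPM in the isotype control library. The other members differed from this pattern in at least 1 library. Pycard was 1.4 and 1.48 times as high with both markers as with neither (intervals 1.06 to 1.86 and 1.17 to 1.86), Nlrc4 1.998 and 1.96 times (intervals 0.64 to 7.34 and 1.13 to 3.44), and Casp1 1.20 and 1.29 times with intervals that included 1. Casp4 was lower with both markers among anti-Gr-1 cells (0.49, interval 0.35 to 0.69) but 1.08 times as high among isotype control cells (interval 0.87 to 1.33). Aim2 had the order of Nlrp3 among anti-Gr-1 cells, at 13.4, 28.7 and 34.4 CPM (0.39, interval 0.16 to 0.89), but not among isotype control cells, at 39.5, 29.5 and 41.6 CPM (0.95). The intervals for Gsdmd included 1 in both libraries. Cells with both markers were deeper, with medians of 10485 and 6692 UMIs against 7651 and 4656 in cells with neither. Among cells of at least 2000 UMIs the Nlrp3 ratios were again 0.066 and 0.098. Between libraries Nlrp3 was lower in anti-Gr-1 cells with 1 marker (0.45, interval 0.24 to 0.78) and with neither (0.65, interval 0.45 to 0.93), and with both markers the interval was wide (0.44, interval 0.078 to 1.71).

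**Figure D5:**
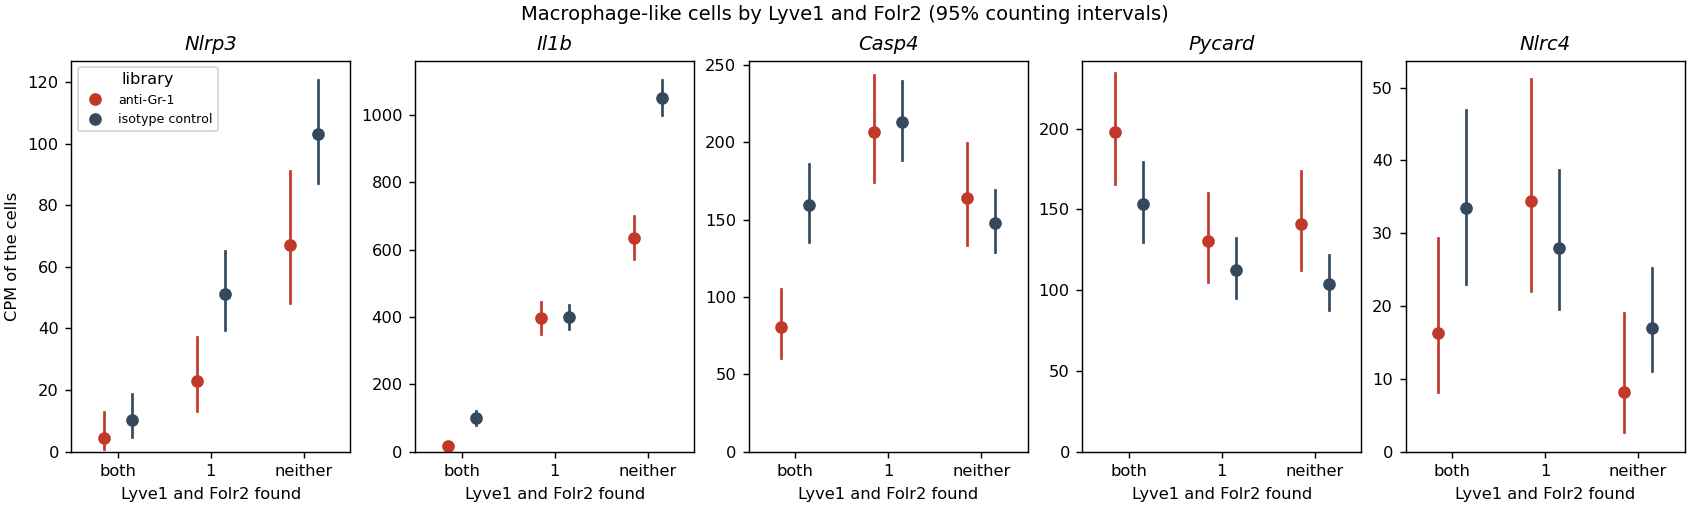
Levels in CPM of macrophage-like cells in which both, 1 or neither of Lyve1 and Folr2 were found, by library, with 95% counting intervals. Nlrp3 and Il1b are lowest where both markers were found (4.46 and 10.1 CPM for Nlrp3), and Pycard is highest there.

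In the phagocytes expressing Retnla, Lpl and Fn1 the Nlrp3 ratio was above 1. They held 195 UMIs in 206 anti-Gr-1 cells and 275 UMIs in 634 isotype control cells, a ratio of 1.31 (interval 1.09 to 1.58), while the 10 neutrophil markers summed to 9.6 and 51.4 CPM in them. Split by sex, this Nlrp3 ratio was 1.34 (interval 0.87 to 2.01) in female and 1.19 (interval 0.92 to 1.54) in male cells, so both intervals included 1. Type 2 dendritic cell-like cells, the class with the most UMIs in all, gave 1.20 (interval 1.06 to 1.35), from 535 and 611 UMIs. By sex this last ratio was 0.91 (interval 0.71 to 1.16) in female and 1.34 (interval 1.14 to 1.58) in male cells. No member was past 1.5-fold in either class, of 7 measured in each. The backgrounds were 2.89% higher and 11.3% lower among 10420 genes in the Retnla, Lpl and Fn1 phagocytes, and 1.77% higher and 6.84% lower among 11894 genes in type 2 dendritic cell-like cells. For Casp1, Casp4, Pycard and Gsdmd the type 2 dendritic cell-like ratios lay between 1.003 and 1.05. The difference between macrophage-like cells and these classes was not tested, since each rests on 1 library per treatment.

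Among the 6 members with at least 20 UMIs in type 1 dendritic cell-like cells, the Xcr1-expressing cross-presenting type, Casp4 had the ratio farthest from 1. It had 33 UMIs in 525 anti-Gr-1 cells and 64 UMIs in 503 isotype control cells (3.65 and 10.3 CPM), a ratio of 0.35 (interval 0.23 to 0.55). By sex it was 0.15 (interval 0.029 to 0.48, 3 and 30 UMIs) in female and 0.55 (interval 0.27 to 1.14, 21 and 15 UMIs) in male cells. Nlrc4, with 2 and 10 UMIs, was under that count. Aim2 gave 0.78 (interval 0.67 to 0.92), and the ratios of Nlrp3, Casp1, Pycard and Gsdmd lay between 0.96 and 1.01. Past 1.5-fold were 0 of 6 measured members higher and 1 lower, beside 2.38% and 11.3% of 10648 genes. The 13 macrophage markers summed to 52.9 CPM in these anti-Gr-1 cells and 241 CPM in these isotype control cells, with all 13 found in both. The 10 neutrophil markers went the other way, at 105 and 23.2 CPM, and S100a8 made 67.3 CPM of the anti-Gr-1 sum. The part of either marker set in the Casp4 difference was not tested.

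Nlrp3 in mast cell-like cells, and Casp1, Nlrp3, Gsdmd and Aim2 in dendritic epidermal T cell-like cells, were past 1.5-fold lower at low levels. The mast cell-like Nlrp3 UMIs numbered 0 in the anti-Gr-1 library and 27 in the isotype control library, so the ratio was at or under 0.115 with 3 counts put in for 0, and its interval reached 0.151. Gsdmd (86 and 89 UMIs) and Pycard (141 and 156 UMIs) had ratios of 0.997 and 0.93 in the same cells. In these cells the 13 macrophage markers summed to 28.4 and 192 CPM (10 and 13 found), the 10 neutrophil markers to 5.67 and 54.6 CPM (5 and 8 found, Ly6g and Mmp8 at 0 in both), and Il1b stood at 23.6 and 248 CPM. Past 1.5-fold were 0 of 4 measured members higher and 1 lower, beside 4.45% and 11.8% of 9513 genes. In dendritic epidermal T cell-like cells Casp1 had 4 and 39 UMIs (0.404 and 3.07 CPM), a ratio of 0.13 (interval 0.034 to 0.37), and Gsdmd 34 and 74 UMIs, a ratio of 0.59 (interval 0.38 to 0.90). Past 1.5-fold were 0 of 6 measured members higher and 4 lower (Casp1, Nlrp3, Gsdmd and Aim2), beside 2.55% and 10.0% of 11931 genes. With ratios centred on the median gene, which shifted them by 0.11 on the log2 scale, 3.65% were higher and 7.41% lower, and Aim2 was no longer past 1.5-fold. By sex, Gsdmd gave 0.49 (interval 0.15 to 1.27) in female and 1.03 (interval 0.54 to 1.996) in male cells. Aim2 gave 0.36 (interval 0.15 to 0.76) and 0.79 (interval 0.504 to 1.25), so neither was past 1.5-fold in male cells. Casp1 was lower in both, with 0 and 16 UMIs in female cells and a ratio of 0.067 (interval 0.0016 to 0.46) in male cells. Nlrp3 gave 0.73 in female and 0.57 in male cells, and both intervals included 1. Pycard, which these cells held at 75.2 and 67.4 CPM, was not among the 4 and had a ratio of 1.12 (interval 1.01 to 1.23). The macrophage markers summed to 29.1 and 87.1 CPM and the 10 type 2 dendritic cell markers to 69.7 and 172 CPM in these T cells. The lowest value of a gene among the 7 classes of at least 300 cells per library was taken as its free RNA level. For Gsdmd in both libraries, Nlrp3 in the isotype control library and Casp1 in the anti-Gr-1 library, that class was these T cells. For Nlrp3 in the anti-Gr-1 library it was mast cell-like cells. The part of RNA from other cells in either class was not tested. Nlrp3 in both classes and Casp1 in the T cells reached 20 UMIs only through the isotype control library.

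Regulatory T cell-like cells differed for the adaptor. Pycard had 388 UMIs in 304 anti-Gr-1 cells and 486 UMIs in 703 isotype control cells (185 and 127 CPM), a ratio of 1.46 (interval 1.27 to 1.67), and it was 1.56 in female and 1.48 in male cells. Casp1 stood at 15.7 and 8.87 CPM, a ratio of 1.77 (interval 1.06 to 2.95), and Aim2 at 25.7 and 39.9 CPM, a ratio of 0.64 (interval 0.46 to 0.88). The Casp1 ratio was above 1 in both sexes, but on few UMIs. Its interval included 1 in female cells (0.79 to 7.54, 7 and 9 UMIs) and in male cells (0.86 to 4.30, 18 and 12 UMIs). The Aim2 ratio was 0.79 in female cells, which was not past 1.5-fold, with an interval that included 1 (0.37 to 1.54). In male cells the Aim2 interval lay under 1 (0.38 to 0.94). Past 1.5-fold were 1 of 6 measured members higher and 1 lower, beside 3.33% and 18.2% of 9862 genes. Macrophage markers summed to 74.3 and 119.9 CPM and type 2 dendritic cell markers to 314 and 501 CPM in this class, so they were lower in anti-Gr-1 cells, as was Aim2 and unlike Pycard and Casp1. Their part in these results was not tested. The lymphoid cells expressing Hlf, Bmp2 and Rora also held more Pycard, at 126 and 99.4 CPM, a ratio of 1.26 (interval 1.12 to 1.43). In gamma-delta type 17 T cell-like cells, which make interleukin-17, Aim2 stood at 17.0 and 10.5 CPM (105 and 61 UMIs), a ratio of 1.61 (interval 1.16 to 2.24). By sex this ratio was 1.95 (interval 1.07 to 3.60) in female cells. In male cells it was 1.25 (interval 0.76 to 2.12), which was not past 1.5-fold. There 1 of 6 measured members, Aim2, was past 1.5-fold higher and 1, Nlrp3, lower (12 and 18 UMIs, 0.62, interval 0.27 to 1.37), beside 2.69% and 12.9% of 10512 genes. No member was past 1.5-fold in conventional CD4 T cell-like cells (0 of 4, beside 7.58% higher and 19.5% lower of 6957 genes) or in the Hlf, Bmp2 and Rora lymphoid cells (0 of 5, beside 2.89% and 12.8% of 10371 genes). Centring on the median gene narrowed the imbalance between higher and lower genes in these 4 lymphoid classes. It gave 5.47% higher and 12.1% lower in regulatory T cell-like cells, where Pycard was then past 1.5-fold higher and Aim2 was not past it. It gave 4.0% and 9.17% in gamma-delta type 17 T cell-like cells, where Nlrp3 was no longer past 1.5-fold. In conventional CD4 T cell-like cells it gave 10.6% and 15.7%, and in the Hlf, Bmp2 and Rora lymphoid cells 4.8% and 8.32%, with no member past 1.5-fold in either.

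Genes that act around the members had class patterns of their own. Mefv, the gene of the sensor pyrin, was highest in classical monocyte-like cells (109 and 121 CPM) and type 2 dendritic cell-like cells (98.9 and 106 CPM), and stood at 3.54 and 13.6 CPM in macrophage-like cells. Nlrp12 stood out in neutrophil-like cells, at 45.2 CPM (3 UMIs) and 46.9 CPM (16 UMIs), with no other class above 0.275 CPM. Il18 was highest in Langerhans cell-like cells at 84.9 and 66.9 CPM. Il1b was highest in type 2 dendritic cell-like cells among anti-Gr-1 cells, at 3310.1 CPM, with 2937 CPM in neutrophil-like cells. Among isotype control cells it was highest in neutrophil-like cells at 6921 CPM, with 3225 CPM in type 2 dendritic cell-like cells. Serpinb1a, an inhibitor of neutrophil proteases and inflammatory caspases, stood at 5076 and 3913 CPM in mast cell-like cells and at no more than 374 CPM in any other class; it has close copies among which counts may be split. Ninj1, which ruptures the membrane after gasdermin pores form, was high in macrophage-like cells at 256 and 198 CPM.

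The lists around the members are read in macrophage-like cells against the 4.13% higher and 11.5% lower of all genes there, and against their median log2 ratio of -0.07. The list medians were -0.24 for other sensors, -0.20 for priming factors, -0.14 for inhibitors, -0.10 for other caspases, -0.08 for adaptors and licensing factors, -0.02 for gasdermin and rupture genes and -0.01 for substrates. Of 15 measured adaptors and licensing factors 0 were past 1.5-fold higher and 5 lower, among them the guanylate-binding protein genes Gbp2 (45.0 and 96.0 CPM, ratio 0.47), Gbp5 (0.54) and Gbp3 (0.61), a family whose members share sequence. Of 12 measured sensors 0 were higher and 3 lower, including Mefv (7 and 51 UMIs, 0.26) and Naip5 (0.37). Of 11 priming receptors and factors 1 was lower, the interferon-responsive Irf1 at 117 and 256 CPM (0.46, interval 0.40 to 0.53). Among substrates Il1b was lower at 340.5 and 576 CPM (0.59, interval 0.54 to 0.64), whereas Il18 stood at 36.9 and 36.1 CPM (1.02). None of 6 other caspases and none of 3 gasdermin and rupture genes was past 1.5-fold, and Ninj1 had a ratio of 1.29 (interval 1.15 to 1.45).

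In other classes the same lists are given beside the shares of all genes stated above for each class. In the Retnla, Lpl and Fn1 phagocytes 2 of 16 adaptors and licensing factors were past 1.5-fold higher and 0 lower, namely Gbp5 (2.03, interval 1.29 to 3.20) and the kinase gene Ripk2 (1.503, interval 1.14 to 1.97), with 0 of 14 sensors higher and 5 lower (all genes, 2.89% higher and 11.3% lower). In type 2 dendritic cell-like cells 0 of 16 adaptors and 1 of 15 sensors were past 1.5-fold, and Irf8 was lower at 9.44 and 18.8 CPM (0.50). In type 1 dendritic cell-like cells 0 of 11 inhibitors were higher and 6 lower (all genes, 2.38% and 11.3%), including Serpinb1a (0.30) and Tnfaip3 (98.3 and 171 CPM, 0.57). Regulatory T cell-like cells had 0 of 11 inhibitors higher and 4 lower (all genes, 3.33% and 18.2%), with Serpinb9 at 3.81 and 17.7 CPM (0.21), and the nucleic acid sensor gene Zbp1 was higher at 58.6 and 36.2 CPM (1.62, interval 1.26 to 2.08). Dendritic epidermal T cell-like cells held less Il1b in the anti-Gr-1 library (22.3 and 84.7 CPM, 0.26), while their Gsdme ratio was 1.31 (interval 1.19 to 1.44).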

How the data were processed

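The authors deposited raw UMI counts per gene and barcode for both libraries. The file headers name Cell Ranger 4.0.0, the submitters' processing notes name mm10, and the labels state 3′ v2 chemistry. Cell Ranger settings and the gene annotation are not given in the sources used here, and 99.85% of gene IDs were found in GENCODE M21. Antibody-derived tags were not used here.

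A barcode passed with 200 or more genes, 500 or more UMIs and a mitochondrial share below 10% (8047 anti-Gr-1 and 19542 isotype control). Doublets were scored with scrublet in scanpy 1.11.5 (Python 3.11.15, numpy 2.4.6, scipy 1.17.1, pandas 2.3.3). Its automatic threshold marked 5.567% and 0.0%, so the highest scores were removed at 0.8% per 1000 barcodes (518 and 3055 barcodes). The files gave 9110 and 21311 barcodes, of which 61 were shared. A cell took the class with the best mean of scaled log marker levels, given at least 3 detected markers, a score of 0.7 and a lead of 0.2 (0.4 over another lineage). These thresholds, and the split by Lyve1 and Folr2, were set after the data had been seen, and the members and gene lists were chosen with earlier results of these data known. Sex was called from Xist and Y-linked UMIs.

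UMIs were summed per class. Levels have exact Poisson intervals, shares Clopper-Pearson intervals and ratios exact conditional intervals; 5 CPM was added before taking log2 ratios. The free RNA level of a gene was its lowest value among 7 classes of at least 300 cells per library. Named genes are the 7 members, up to 4 genes of each list with the largest log2 ratio in a class, and the 3 genes most like each member, of which some are not reported here; genes given for their level across classes were picked after their values were seen. On simulated macrophage-like counts with a true ratio of 0.5 the median estimate was 0.496, and 97.0% of 99 intervals covered the truth; at a true ratio of 1, 8.3% of 9794 genes were past 1.5-fold by counting error. Plots were drawn with matplotlib 3.10.9.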

Additional observations from a re-analysis of the deposited data

How the results depend on the processing

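No paired analysis was possible because each treatment is 1 library. Of 58 ratios of members in classes, recomputed under up to 10 alternatives, 495 values stayed inside the counting interval, 67 left it, and 3 values of ratios past 1.5-fold crossed 1; over all 58 ratios 79 values, in 35 ratios, lay on the other side of 1. Doublets kept, only cells of at least 2000 UMIs, under 5% mitochondrial UMIs and a stricter gate of 4 markers moved none of the ratios they could give; that gate gives no value for the classes set by 3 genes. Female cells alone moved 17, thinning to 1000 UMIs 29, and subtraction of the free RNA level 13 of 55. The 3 were Gsdmd in dendritic epidermal T cell-like cells at 1.03 in male cells, and Nlrp3 in gamma-delta type 17 T cell-like cells at 1.06 in female cells and 2.14 with the free RNA level subtracted. In macrophage-like cells Casp1 was 1.30 after thinning and Casp4 0.999 in Leiden clusters. In the Retnla, Lpl and Fn1 phagocytes Pycard was 1.01 in Leiden clusters and 0.889 after thinning, and Gsdmd 1.15 in female cells and 1.09 after thinning. Aim2 in type 1 dendritic cell-like cells was 0.989 in female cells and 0.478 after thinning. Ranking classes by thinned share of cells left 3 of the 5 highest for Pycard in the anti-Gr-1 library, 3 for Gsdmd in each library, 2 for Nlrc4 and 3 for Aim2 in the anti-Gr-1 library. The cause of these shifts was not tested. With at least 100 UMIs over both libraries the genes past 1.5-fold numbered 336 (of 1541 at 20 UMIs) in mast cell-like, 366 (1558) in macrophage-like, 381 (1483) in Retnla, Lpl and Fn1, 474 (1461) in type 1 and 252 (1023) in type 2 dendritic cell-like, 594 (1500) in dendritic epidermal T cell-like, 561 (1643) in gamma-delta type 17, 749 (2124) in regulatory, 310 (1887) in conventional CD4 and 602 (1629) in Hlf, Bmp2 and Rora cells, where fewer genes are measured. Of 273 levels, thinning moved 122, female cells 104 and free RNA subtraction 80 outside their interval.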
